A study of Mus musculus with 12 samples.

Results

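The unfolded protein response and the folding machinery of the endoplasmic reticulum (ER) were described in Sp37A3 cells through a list of 36 genes, which were looked up by symbol among the 55401 genes of the counts table. All 36 were found, each with 1 main identifier, and all 36 were among the 14079 genes expressed highly enough to be tested. They fall into 7 roles, namely the HSP70 system of the ER (7 genes), lectin chaperones (2), disulfide isomerases (5), other lumenal proteins (3), stress sensors and their transcription factors (5), targets of the integrated stress response (6) and ER degradation (8). Hsp90b1, an HSP90 gene, is counted here with the HSP70 system. Sp37A3 is an immature dendritic cell (DC) line from mouse spleen, and 4 groups of 3 cultures each, 12 libraries in all, were compared by bulk mRNA sequencing. CtrV cells were transduced with an empty lentiCRISPRv2 vector, and EKO cells with the same vector carrying a guide RNA against Siglece, the gene of the inhibitory receptor Siglec-E. The EKO line is a pool of several single-cell clones, each genotype is represented by 1 line, and both lines grew in GM-CSF and M-CSF. Unpulsed cells received no ovalbumin (OVA), OVA-pulsed cells received 0.1 mg/ml OVA for 2 h, and all 4 groups were stimulated with lipopolysaccharide (LPS) for 24 h, so no unstimulated cells were measured. The effect of Siglec-E and any other difference between the 2 lines therefore cannot be told apart.

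Proteins that enter the secretory pathway fold in the ER with the help of chaperones, of which the HSP70 protein BiP, encoded by Hspa5, is the central one. When unfolded proteins accumulate, BiP leaves 3 membrane sensors. IRE1 (Ern1) splices the mRNA of Xbp1, PERK (Eif2ak3) phosphorylates the translation factor eIF2α and so favours translation of ATF4, and ATF6 travels to the Golgi and is cleaved into a transcription factor. XBP1 and ATF6 raise chaperone and degradation genes, whereas ATF4 and CHOP (Ddit3) raise genes of amino acid supply and of the recovery of translation, a branch that other kinases also feed and that is called the integrated stress response (ISR). In DCs the IRE1 and XBP1 branch is known for its part in development and in antigen presentation.

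Library totals ranged from 27116201 to 39698572 counts, and 3 counts, taken as the smallest level that can be seen, corresponded to 0.0784 to 0.110 CPM, the count relative to the scaled library total. Library values below are listed in the order of replicates 1, 2 and 3. Each of the 36 genes had between 49 and 63961 counts in a library. All 10 DC markers lay above 1 CPM in the mean over the libraries. They summed to 23452 to 25662 CPM in CtrV and 24013 to 26241 CPM in EKO-labelled libraries, most of it Cd74. Single DC markers were not alike in the lines. H2-Aa lay at 2517 to 2781 CPM in CtrV and 3517 to 4063 CPM in EKO-labelled libraries. Itgax lay at 856 to 1087 and 822 to 878 CPM. Macrophage markers, of which 6 of 7 lay above 1 CPM, summed to 2039 to 2297 CPM in CtrV and to 2830.03 to 3241 CPM in EKO-labelled libraries. C1qa, C1qb, Csf1r, Fcgr1 and Marco ranged higher in EKO-labelled libraries. Adgre1, at 593 to 702 CPM in CtrV and 596 to 686 CPM in EKO-labelled libraries, and Mertk overlapped between the lines. The part of the macrophage markers in the differences below was not tested. No T cell, B cell, fibroblast or neutrophil marker reached 1 CPM in the mean. The mRNA of Siglece was not lower in the cells labelled EKO, at 150.004 to 163 CPM in CtrV and 166 to 235 CPM in EKO-labelled libraries. A frameshift need not lower an mRNA, so this level does not check the label. By the study's methods, the clones were screened for Siglec-E expression before they were pooled. In the following, the cells are called EKO-labelled wherever a direction is given.

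Promoters of the 36 genes were read from RefSeq (GRCm38.p6), from 250 bases before to 50 bases after the start, and were present for 32 of them. They were searched on both strands for letters that the factors of this response are known to recognise, and the matches are shown because 9 of the genes share one element. The ER stress element, CCAAT followed 9 bases later by CCACG, is bound by NF-Y together with ATF6 or XBP1. It was found in 39 of 32851 promoters (0.119%), and 9 of those 39 belong to genes of this list. The matches with their flanks, written 5′ to 3′ along the strand that carries the motif and with its 2 parts in capitals, are the following.
Hspa5, chr2:34772020-34772048, plus strand: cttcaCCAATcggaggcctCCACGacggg
Calr, chr8:84847070-84847098, plus strand: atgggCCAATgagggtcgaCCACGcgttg
Derl3, chr10:75893237-75893265, minus strand: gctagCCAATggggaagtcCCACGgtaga
Hsp90b1, chr10:86705633-86705661, minus strand: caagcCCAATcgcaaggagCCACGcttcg
Hsp90b1, chr10:86705528-86705556, plus strand: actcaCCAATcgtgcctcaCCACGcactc
Canx, chr11:50325795-50325823, minus strand: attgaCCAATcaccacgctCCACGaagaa
Pdia6, chr12:17266486-17266514, plus strand: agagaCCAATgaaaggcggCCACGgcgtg
Dnajc3, chr14:118937822-118937850, plus strand: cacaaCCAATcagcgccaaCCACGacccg
Creld2, chr15:88819515-88819543, minus strand: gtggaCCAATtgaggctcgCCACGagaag
Syvn1, chr19:6046527-6046555, plus strand: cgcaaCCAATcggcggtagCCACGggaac
A second ER stress element, ATTGG followed 1 base later by CCACG, was searched after the data had been seen. It was found in 12 promoters (0.0365%), including those of 2 genes of the list.
Herpud1, chr8:94386368-94386396, plus strand: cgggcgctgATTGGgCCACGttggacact
Dnajb11, chr16:22857843-22857871, plus strand: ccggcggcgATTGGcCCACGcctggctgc
The C/EBP-ATF element, TGATG followed 1 base later by AA, is bound by ATF4 and CHOP with C/EBP partners. It was found in 1304 promoters (3.97%), 4 of them of the list, and its fixed letters are again in capitals.
Chac1, chr2:119351039-119351066, minus strand: ctggcaggagTGATGcAAcggcagggaa
Trib3, chr2:152344029-152344056, plus strand: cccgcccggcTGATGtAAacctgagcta
Asns, chr6:7693215-7693242, minus strand: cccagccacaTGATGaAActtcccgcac
Herpud1, chr8:94386307-94386334, minus strand: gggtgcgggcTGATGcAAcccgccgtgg
The unfolded protein response element TGACGTGG was present in 222 promoters (0.676%) and in 0 of the 32 of the list. By the GENCODE annotation the windows of Hspa5, Dnajb11, Trib3 and Asns overlap an exon of the list's genes, and the other windows do not. A match is a description of the letters and not a site or a cause.

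EKO-labelled cells held less mRNA of most ER folding proteins and more mRNA of BiP and of most ISR targets than CtrV cells, both with and without OVA. In OVA-pulsed cells, 27 of the 36 genes differed between the lines by the quasi-likelihood test of edgeR, adjusted after Benjamini and Hochberg over all 14079 genes (adjusted p under 0.05), where 47.0% of all tested genes did. Of the 36, 9 were higher in EKO-labelled cells (25% of the list, against 25.1% of all genes), and 18 were lower (50% of the list, against 21.9% of all genes). The share of higher genes was thus that of the background, and the share of lower genes was above it. The median log2 fold change of the 36 genes was -0.12 beside 0.00064 over all genes, and their median absolute change was 0.39 beside 0.21. In unpulsed cells the test called 27 genes as well (46.4% of all genes), 10 higher (24.5% of all genes) and 17 lower (21.9% of all genes). In bulk RNA, fewer cells that express a gene and less RNA per cell cannot be told apart.

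**Figure D1:**
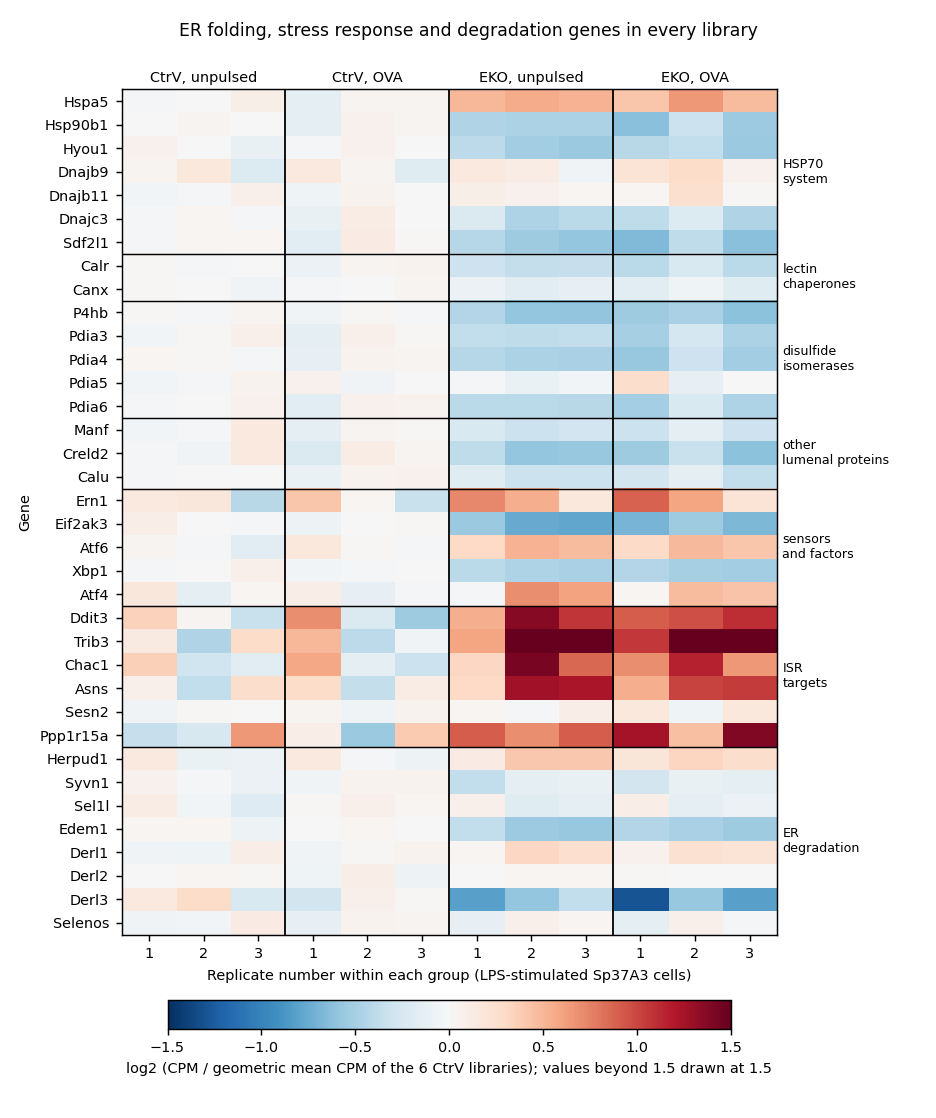
Level of each of the 36 genes (rows, grouped by role) in each of the 12 libraries (columns, grouped by line and pulsing), as log2 of CPM over the geometric mean of the 6 CtrV libraries. Hspa5 and 5 of the 6 ISR targets are red and most of the other folding proteins blue in the 6 EKO-labelled libraries, replicate 1 of the unpulsed EKO-labelled cells is the palest of them for Trib3, Chac1, Asns and Atf4, and values above 1.5 (Trib3) are drawn at 1.5.

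Among the 17 folding proteins of the ER lumen and membrane, 13 were lower (21.9% of all genes) and 2 higher (25.1% of all genes) in OVA-pulsed EKO-labelled cells, with a median log2 fold change of -0.35. Without OVA, 12 were lower (21.9% of all genes) and 1 was higher (24.5% of all genes), with a median of -0.35. Hspa5 (ENSMUSG00000026864, chr2:34771970-34777547, plus strand) encodes BiP and was higher in both states. Hspa5 lay at 1228, 1257 and 1329.7 CPM in the unpulsed and 1131, 1289 and 1289 CPM in the OVA-pulsed CtrV libraries, against 1768, 1835 and 1798 CPM in the unpulsed and 1671, 1969 and 1738 CPM in the OVA-pulsed EKO-labelled libraries. The ranges of the lines did not overlap, and the log2 fold change was 0.54 ± 0.06 (SE; adjusted p = 3.9e-05) with OVA and 0.50 ± 0.06 (SE; adjusted p = 6.6e-05) without. Hsp90b1 (ENSMUSG00000020048, chr10:86690209-86705509, minus strand) encodes GRP94, the HSP90 of the ER, which folds Toll-like receptors and integrins. The CtrV libraries held Hsp90b1 at 1737, 1782 and 1743 CPM without and 1569, 1824 and 1783 CPM with OVA, and the EKO-labelled libraries at 1272, 1246 and 1255 CPM without and 1127, 1385 and 1196 CPM with OVA. All 6 EKO-labelled libraries lay below all 6 CtrV libraries, and the log2 fold change was -0.48 ± 0.07 (SE; adjusted p = 0.00018) with OVA and -0.48 ± 0.07 (SE; adjusted p = 0.000205) without. Exons on the opposite strand overlap 10.3% of its exon bases, and the use of strand in the counting is not given in the sources used here.

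BiP works with exchange factors and DNAJ co-chaperones, and of the 4 such genes of the list 2 were lower in both states (21.9% of all genes in each). Levels of Hyou1 were 544, 519 and 483 CPM (CtrV, unpulsed), 513, 542 and 519 CPM (CtrV, OVA), 396, 361 and 353 CPM (EKO-labelled, unpulsed) and 389.7, 402 and 353 CPM (EKO-labelled, OVA). Hyou1 encodes GRP170, a nucleotide exchange factor of BiP, and was lower in every EKO-labelled library, by a log2 fold change of -0.46 ± 0.06 (SE; adjusted p = 6.8e-05) with OVA and -0.48 ± 0.06 (SE; adjusted p = 5.8e-05) without. For Sdf2l1, unpulsed CtrV libraries gave 283, 296 and 296 CPM and OVA-pulsed ones 259, 315 and 294 CPM, while unpulsed EKO-labelled libraries gave 216, 200.1 and 195 CPM and OVA-pulsed ones 184, 222 and 187 CPM. Sdf2l1, whose protein joins BiP and DNAJ proteins in one complex, changed by -0.55 ± 0.08 (SE; adjusted p = 0.00019) with OVA and -0.52 ± 0.08 (SE; adjusted p = 0.00031) without. Dnajc3, the co-chaperone p58IPK, was lower by a log2 fold change of -0.35 ± 0.08 (SE; adjusted p = 0.0041) with OVA and -0.35 ± 0.08 (SE; adjusted p = 0.0044) without. Dnajb9 encodes ERdj4, which brings BiP to misfolded proteins and to IRE1, and was called only with OVA. Dnajb9 lay at 36.3, 39.5 and 30.7 CPM in the unpulsed and 39.3, 36.3 and 31.3 CPM in the OVA-pulsed CtrV libraries, against 39.3, 38.4 and 34.2 CPM in the unpulsed and 40.8, 42.9 and 37.2 CPM in the OVA-pulsed EKO-labelled libraries. Its ranges overlapped between the lines, at 0.18 ± 0.06 (SE; adjusted p = 0.026) with OVA and 0.07 ± 0.06 (SE; adjusted p = 0.33) without, and the call with OVA was lost in DESeq2 (adjusted p = 0.064), under upper-quartile scaling (adjusted p = 0.058), with no expression filter (adjusted p = 0.093) and without the replicate block (adjusted p = 0.22), and when CtrV_OVA replicate 2, CtrV_OVA replicate 3, EKO_OVA replicate 2 or EKO_OVA replicate 3 was left out (adjusted p up to 0.17). Dnajb11, the co-chaperone ERdj3, was not called, at a log2 fold change of 0.10 with a 95% interval of -0.04 to 0.23 with OVA and 0.06 (-0.08 to 0.20) without.

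The ratio of Hspa5 to Hsp90b1 counts within a library, chosen after the values were seen and therefore given without a test, separated the lines completely. This separation follows from the values of the 2 genes given above and adds no evidence to them. It was 0.725 ± 0.0326 (SD, n = 3) in unpulsed and 0.717 ± 0.00876 in OVA-pulsed CtrV cells, and 1.43 ± 0.0409 and 1.45 ± 0.0306 in EKO-labelled cells. Such a ratio does not depend on the scaling between libraries. Hspa5 made up 11.3 ± 0.345% and 11.1 ± 0.199% of the summed CPM of the 17 folding genes in CtrV cells without and with OVA. In EKO-labelled cells its share was 19.1 ± 0.658% and 19.1 ± 0.344%. The other 16 folding genes together held 10018 ± 65.3 and 9924 ± 566 CPM in CtrV cells, and 7642 ± 198 and 7608 ± 579 CPM in EKO-labelled cells. Per kilobase of exon, Hspa5 ranked 5 among the 36 genes in OVA-pulsed CtrV cells (292 CPM per kilobase) and 2 in OVA-pulsed EKO-labelled cells (424 CPM per kilobase). Hsp90b1 ranked 3 and 5 (428 and 306 CPM per kilobase), and Calr, the lectin calreticulin, was first in all 4 groups. The same ranks held for Hspa5 and Hsp90b1 in unpulsed cells.

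The lectin chaperones hold glycoproteins until their glycans are trimmed, and calreticulin also serves the loading of MHC class I molecules. Calr was lower in EKO-labelled cells by a log2 fold change of -0.34 ± 0.06 (SE; adjusted p = 0.00089) with OVA and -0.34 ± 0.06 (SE; adjusted p = 0.00098) without. For Canx, the membrane-bound calnexin, the values were -0.15 ± 0.05 (SE; adjusted p = 0.033) with OVA and -0.11 ± 0.05 (SE; adjusted p = 0.104) without, so its small difference passed the test only with OVA. Canx lost this call when CtrV_OVA replicate 2, CtrV_OVA replicate 3, EKO_ut replicate 3, EKO_OVA replicate 1 or EKO_OVA replicate 3 was left out (adjusted p up to 0.15) and in the fit of the 6 compared libraries (adjusted p = 0.064). Without OVA it was called under upper-quartile scaling (adjusted p = 0.028). The disulfide isomerases form and rearrange disulfide bonds, and 4 of the 5 were lower in both states (21.9% of all genes in each). The CtrV libraries held P4hb at 1366, 1336 and 1392 CPM without and 1299, 1365 and 1334 CPM with OVA, and the EKO-labelled libraries at 997, 899.6 and 893 CPM without and 933, 959.6 and 881 CPM with OVA. P4hb encodes the classical protein disulfide isomerase, and each EKO-labelled library lay below each CtrV library, at -0.53 ± 0.06 (SE; adjusted p = 3.3e-05) with OVA and -0.55 ± 0.06 (SE; adjusted p = 2.5e-05) without. Levels of Pdia4 were 521, 515 and 503 CPM (CtrV, unpulsed), 468, 530.4 and 523 CPM (CtrV, OVA), 378, 366 and 364 CPM (EKO-labelled, unpulsed) and 342, 409.8 and 356 CPM (EKO-labelled, OVA). Pdia4 (ERp72) differed by -0.46 ± 0.07 (SE; adjusted p = 0.00023) with OVA and -0.47 ± 0.07 (SE; adjusted p = 0.000199) without. Pdia3, the isomerase ERp57 that partners the lectins and tapasin, differed by -0.39 ± 0.06 (SE; adjusted p = 0.00051) with OVA and -0.39 ± 0.06 (SE; adjusted p = 0.00054) without, and Pdia6 (P5) by -0.39 ± 0.07 (SE; adjusted p = 0.00104) with OVA and -0.42 ± 0.07 (SE; adjusted p = 0.00061) without. Pdia5 was not called, with 95% intervals of its log2 fold change of -0.14 to 0.25 with OVA and -0.25 to 0.15 without.

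The other 3 lumenal proteins were lower in EKO-labelled cells in both states (21.9% of all genes in each). For Creld2, unpulsed CtrV libraries gave 132, 130.5 and 149.8 CPM and OVA-pulsed ones 116, 146 and 139 CPM, while unpulsed EKO-labelled libraries gave 104, 90.1 and 90.9 CPM and OVA-pulsed ones 93.5, 107 and 88.3 CPM. Creld2 encodes an ER protein that is induced by ER stress and partly secreted. The groups did not overlap, and its log2 fold change was -0.47 ± 0.10 (SE; adjusted p = 0.0034) with OVA and -0.53 ± 0.10 (SE; adjusted p = 0.0017) without. Manf, a BiP-binding protein that can be secreted, differed by -0.23 ± 0.07 (SE; adjusted p = 0.0198) with OVA and -0.30 ± 0.07 (SE; adjusted p = 0.0047) without. Its call with OVA was lost without CtrV_OVA replicate 2, CtrV_OVA replicate 3, EKO_OVA replicate 1 or EKO_OVA replicate 3 (adjusted p up to 0.11). Calu, the calcium-binding calumenin, differed by -0.27 ± 0.07 (SE; adjusted p = 0.0081) with OVA and -0.27 ± 0.07 (SE; adjusted p = 0.0096) without, and its calls were lost without EKO_OVA replicate 3 (adjusted p = 0.053) with OVA and without EKO_ut replicate 2 (adjusted p = 0.053) in unpulsed cells. Exons on the opposite strand overlap 8.85% of the exon bases of Manf and 8.51% of those of Calu.

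The 3 sensors did not move together, since Ern1 and Atf6 were higher and Eif2ak3 was lower in EKO-labelled cells. Ern1 (ENSMUSG00000020715, chr11:106394650-106487852, minus strand) encodes IRE1. Ern1 lay at 41.9, 42.5 and 28.4 CPM in the unpulsed and 50.3, 38.5 and 29.9 CPM in the OVA-pulsed CtrV libraries, against 62.5, 55.3 and 42.2 CPM in the unpulsed and 69.6, 57.1 and 43.6 CPM in the OVA-pulsed EKO-labelled libraries. In every group replicate 1 or 2 was highest and replicate 3 lowest, and the ranges of the lines overlapped, while in all 6 same-numbered pairs the EKO-labelled library was higher. The log2 fold change was 0.52 ± 0.07 (SE; adjusted p = 0.00012) with OVA and 0.51 ± 0.07 (SE; adjusted p = 0.00017) without. When the fit left out the replicate block the calls were lost, with adjusted p = 0.094 with OVA and 0.11 without. Atf6 (ENSMUSG00000026663, chr1:170704674-170867771, minus strand) encodes the membrane-bound factor ATF6. The CtrV libraries held Atf6 at 73.4, 69.8 and 63.0 CPM without and 79.3, 72.2 and 69.7 CPM with OVA, and the EKO-labelled libraries at 87.3, 102 and 98.5 CPM without and 87.0, 99.8 and 95.2 CPM with OVA. Its groups did not overlap, and the change was 0.35 ± 0.08 (SE; adjusted p = 0.0048) with OVA and 0.48 ± 0.08 (SE; adjusted p = 0.00071) without.

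Eif2ak3 (ENSMUSG00000031668, chr6:70844515-70905245, plus strand), which encodes PERK, was the sensor gene that fell. Levels of Eif2ak3 were 73.5, 68.3 and 67.1 CPM (CtrV, unpulsed), 65.0, 68.8 and 69.3 CPM (CtrV, OVA), 46.8, 40.6 and 39.9 CPM (EKO-labelled, unpulsed) and 42.3, 47.3 and 42.9 CPM (EKO-labelled, OVA). Every EKO-labelled library was below every CtrV library, with a log2 fold change of -0.62 ± 0.07 (SE; adjusted p = 4.5e-05) with OVA and -0.72 ± 0.07 (SE; adjusted p = 1.7e-05) without. Opposite-strand exons overlap 8.05% of its exon bases. Xbp1 (ENSMUSG00000020484, chr11:5520659-5525893, plus strand) is the mRNA that IRE1 splices, and the counts per gene do not separate its spliced from its unspliced form. For Xbp1, unpulsed CtrV libraries gave 282, 288 and 303 CPM and OVA-pulsed ones 280.04, 285 and 289 CPM, while unpulsed EKO-labelled libraries gave 218, 209 and 206 CPM and OVA-pulsed ones 212, 204 and 200.5 CPM. The values of each line were close together and did not overlap, and Xbp1 changed by -0.47 ± 0.05 (SE; adjusted p = 2.5e-05) with OVA and -0.47 ± 0.05 (SE; adjusted p = 3.01e-05) without. Thus, the level of Ern1 was higher and that of its substrate lower in EKO-labelled cells, and splicing was not measured.

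**Figure D2:**
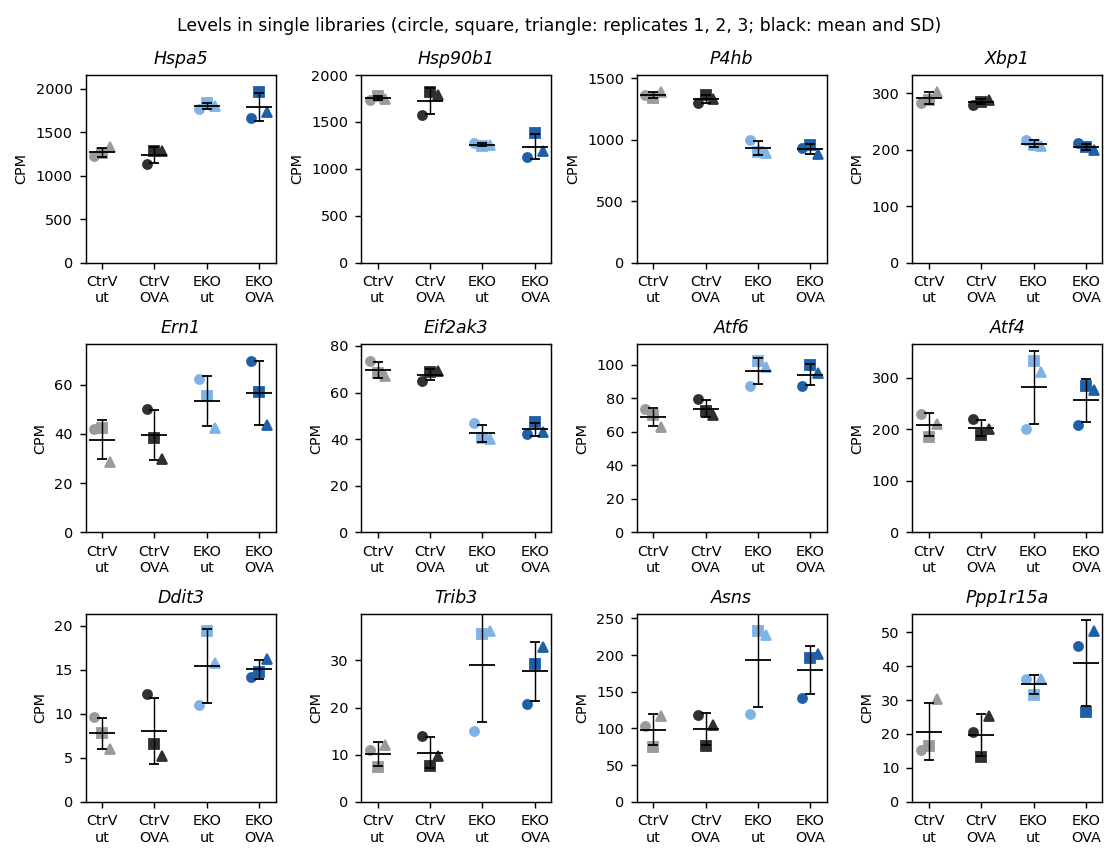
CPM of 12 genes in each library (vertical axes, from 0) for the 4 groups (horizontal axes), with circles, squares and triangles for replicates 1, 2 and 3 and the mean and SD in black. Hspa5, Ern1 and Atf6 are higher and Hsp90b1, P4hb, Xbp1 and Eif2ak3 lower in EKO-labelled cells, and for Atf4, Trib3 and Asns the circle of the unpulsed EKO-labelled cells lies well below the square and the triangle.

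The largest called rises of the list were targets of the ISR, of which 4 of 6 were higher with OVA (25.1% of all genes), 5 were higher without OVA (24.5% of all genes) and none was lower. The 4 fell to 2 without CtrV_OVA replicate 2 or 3, and the 5 fell to 2 without CtrV_ut replicate 2 and to 3 without CtrV_ut replicate 3, EKO_ut replicate 2 or EKO_ut replicate 3. Atf4 itself is controlled mainly through translation, so its mRNA is not a measure of its protein. Atf4 lay at 230.3, 185 and 209 CPM in the unpulsed and 219, 188 and 200.1 CPM in the OVA-pulsed CtrV libraries, against 200.02, 332 and 312 CPM in the unpulsed and 209, 284 and 276 CPM in the OVA-pulsed EKO-labelled libraries. In EKO-labelled cells replicate 1 lay within the CtrV range and replicates 2 and 3 above it. Leaving out replicate 1 of these cells therefore raises the estimate by construction, and no fit left out both CtrV replicates 1. Atf4 was not called, at 0.32 ± 0.17 (SE; adjusted p = 0.14) with OVA and 0.41 ± 0.17 (SE; adjusted p = 0.0703) without. Without both EKO-labelled replicates 1 the log2 fold change was 0.54 (adjusted p = 0.00016) with OVA and 0.70 (adjusted p = 2.4e-05) without. Without the unpulsed one alone it was 0.34 (adjusted p = 0.041) with OVA and 0.63 (adjusted p = 0.0047) without. In unpulsed cells the call was also gained without CtrV_ut replicate 1 (adjusted p = 0.0195) and with no expression filter (adjusted p = 0.022).

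Ddit3 (ENSMUSG00000025408, chr10:127290774-127296288, plus strand) encodes CHOP. The CtrV libraries held Ddit3 at 9.58, 7.76 and 6.00 CPM without and 12.3, 6.52 and 5.20 CPM with OVA, and the EKO-labelled libraries at 11.0, 19.4 and 15.8 CPM without and 14.2, 14.7 and 16.2 CPM with OVA. The lines did not overlap within a pulsing state, although replicate 1 of the OVA-pulsed CtrV cells came near the EKO-labelled libraries. Its log2 fold change was 0.92 ± 0.28 (SE; adjusted p = 0.021) with OVA and 1.01 ± 0.29 (SE; adjusted p = 0.015) without. The call with OVA was lost without CtrV_OVA replicate 2, CtrV_OVA replicate 3 or EKO_OVA replicate 3 (adjusted p up to 0.11), and the call without OVA was lost without CtrV_ut replicate 2, CtrV_ut replicate 3, EKO_ut replicate 2 or EKO_ut replicate 3 (adjusted p up to 0.084). A second identifier of the same symbol, with 105 exon bases, was counted apart at 0.596 to 2.505 CPM, and opposite-strand exons overlap 4.73% of the main one.

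Trib3 encodes a pseudokinase that is induced by ATF4 and CHOP and restrains both. Levels of Trib3 were 10.9, 7.29 and 12.0 CPM (CtrV, unpulsed), 14.03, 7.57 and 9.64 CPM (CtrV, OVA), 15.1, 35.7 and 36.3 CPM (EKO-labelled, unpulsed) and 20.8, 29.3 and 32.9 CPM (EKO-labelled, OVA). Trib3 was higher in all EKO-labelled libraries, least in replicate 1, and its log2 fold change was 1.36 ± 0.32 (SE; adjusted p = 0.0055) with OVA and 1.504 ± 0.33 (SE; adjusted p = 0.0037) without. For Asns, unpulsed CtrV libraries gave 103, 75.3 and 116 CPM and OVA-pulsed ones 118, 75.9 and 105 CPM, while unpulsed EKO-labelled libraries gave 119, 233 and 227 CPM and OVA-pulsed ones 142, 196 and 202 CPM. Asns encodes asparagine synthetase, and its values showed a like pattern, with replicate 1 of the unpulsed EKO-labelled cells almost at the level of CtrV cells. Asns differed by 0.84 ± 0.24 (SE; adjusted p = 0.016) with OVA and 0.97 ± 0.25 (SE; adjusted p = 0.0085) without. It lost its call without CtrV_OVA replicate 2, CtrV_OVA replicate 3 or EKO_OVA replicate 2 (adjusted p up to 0.099) with OVA and without CtrV_ut replicate 2 (adjusted p = 0.054) in unpulsed cells. Without both EKO-labelled replicates 1, the log2 fold change with OVA was 1.76 (adjusted p = 1.2e-05) for Trib3, 1.11 (adjusted p = 0.00016) for Asns and 1.29 (adjusted p = 0.00011) for Ddit3. In unpulsed cells it was 2.01 (adjusted p = 4.3e-06) for Trib3, 1.34 (adjusted p = 3.9e-05) for Asns, 1.47 (adjusted p = 3.9e-05) for Ddit3 and 1.41 (adjusted p = 2.9e-05) for Chac1. For Trib3, Asns and Ddit3, replicate 1 was the lowest EKO-labelled library of each state. Its removal therefore raises their changes by construction.

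Ppp1r15a encodes GADD34, the subunit that returns eIF2α to its unphosphorylated state. Ppp1r15a lay at 15.2, 16.3 and 30.3 CPM in the unpulsed and 20.7, 13.1 and 25.3 CPM in the OVA-pulsed CtrV libraries, against 36.2, 31.3 and 36.2 CPM in the unpulsed and 45.9, 26.4 and 50.5 CPM in the OVA-pulsed EKO-labelled libraries. The ranges of the lines did not overlap within a pulsing state, although the replicates of 3 of the 4 groups were spread widely, and the log2 fold change was 1.06 ± 0.18 (SE; adjusted p = 0.00072) with OVA and 0.80 ± 0.18 (SE; adjusted p = 0.0048) without. In unpulsed cells the call was lost without the replicate block (adjusted p = 0.075). Chac1, an enzyme that breaks down glutathione and a target of ATF4, passed the test only without OVA, at 0.75 ± 0.29 (SE; adjusted p = 0.052) with OVA and 0.94 ± 0.29 (SE; adjusted p = 0.023) without. With OVA it was called when CtrV_ut replicate 1, CtrV_OVA replicate 1, EKO_ut replicate 1 or EKO_ut replicate 2 was left out (adjusted p between 0.0078 and 0.049), and without OVA the call was lost without CtrV_ut replicate 2, CtrV_ut replicate 3, EKO_ut replicate 2 or EKO_ut replicate 3 (adjusted p up to 0.12). With OVA it was also called in limma voom (adjusted p = 0.046), with no expression filter (adjusted p = 0.0091) and in the fit of the 6 compared libraries (adjusted p = 0.021). Without both EKO-labelled replicates 1 its log2 fold change with OVA was 1.101 (adjusted p = 0.00018). That fit kept both CtrV replicates 1, and in either state its larger value is no separate support for a difference in Chac1. Sesn2, a stress-induced inhibitor of mTORC1 signalling, was not called, with 95% intervals of -0.05 to 0.20 with OVA and -0.08 to 0.17 without.

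Replicate 1 stood apart from replicates 2 and 3 in most ISR targets of unpulsed EKO-labelled and OVA-pulsed CtrV cells, in opposite directions. Over the 6 ISR targets, the median log2 difference of replicate 1 from the mean of replicates 2 and 3 was -0.75 in unpulsed and -0.17 in OVA-pulsed EKO-labelled cells. The same median was 0.18 in unpulsed and 0.56 in OVA-pulsed CtrV cells. For the disulfide isomerases it lay between -0.17 and 0.05 in the 4 groups. Single ISR targets ranged from -1.26 to 0.10 in unpulsed EKO-labelled and from 0.05 to 1.08 in OVA-pulsed CtrV cells. They ranged from -0.55 to 0.58 in unpulsed CtrV and from -0.58 to 0.33 in OVA-pulsed EKO-labelled cells, with no common direction. Without both EKO-labelled replicates 1, 12 of the 36 genes were higher and 16 lower with OVA, and 11 higher and 16 lower without OVA. No share of all genes is given for that fit, so these counts cannot be set against a background. What set replicate 1 apart was not tested.

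ER degradation carries misfolded proteins to the proteasome. Of its 8 genes in the list, 1 was higher, 3 were lower and 4 did not pass the test with OVA, so 50% were called beside 47.0% of all genes, a share near the background. Without OVA the counts were 2, 3 and 3, so 62.5% were called beside 46.4% of all genes. The CtrV libraries held Edem1 at 601, 600.1 and 557 CPM without and 586, 602 and 592 CPM with OVA, and the EKO-labelled libraries at 456, 403 and 399 CPM without and 436, 419 and 407 CPM with OVA. Edem1 encodes a lectin-like protein that hands misfolded glycoproteins to degradation, and it was lower in every EKO-labelled library, by -0.50 ± 0.05 (SE; adjusted p = 2.8e-05) with OVA and -0.48 ± 0.05 (SE; adjusted p = 3.8e-05) without. Levels of Derl3 were 3.49, 3.79 and 2.68 CPM (CtrV, unpulsed), 2.59, 3.32 and 3.18 CPM (CtrV, OVA), 1.79, 2.11 and 2.44 CPM (EKO-labelled, unpulsed) and 1.28, 2.12 and 1.78 CPM (EKO-labelled, OVA). Derl3 encodes a derlin of the ER membrane and changed by -0.82 ± 0.17 (SE; adjusted p = 0.0029) with OVA and -0.64 ± 0.17 (SE; adjusted p = 0.011) without. In unpulsed cells Derl3 lost its call without CtrV_ut replicate 1 or EKO_ut replicate 2 (adjusted p up to 0.064).

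Derl1, another derlin, was the degradation gene that was higher in both states. For Derl1, unpulsed CtrV libraries gave 122, 121 and 135 CPM and OVA-pulsed ones 122, 128 and 132 CPM, while unpulsed EKO-labelled libraries gave 129, 156 and 151 CPM and OVA-pulsed ones 132, 148 and 146 CPM. Its difference was small, at 0.16 ± 0.06 (SE; adjusted p = 0.045) with OVA and 0.21 ± 0.06 (SE; adjusted p = 0.013) without, and with OVA it was lost without CtrV_OVA replicate 1, CtrV_OVA replicate 2, CtrV_OVA replicate 3, EKO_ut replicate 3, EKO_OVA replicate 1, EKO_OVA replicate 2 or EKO_OVA replicate 3 (adjusted p up to 0.196), as well as in DESeq2 (adjusted p = 0.06001), under upper-quartile scaling (adjusted p = 0.12), with no expression filter (adjusted p = 0.14) and without the replicate block (adjusted p = 0.14). In unpulsed cells it was lost without CtrV_ut replicate 2 or EKO_ut replicate 2 (adjusted p up to 0.079), without the replicate block (adjusted p = 0.057) and in the fit of the 6 compared libraries (adjusted p = 0.101). Syvn1, the ubiquitin ligase HRD1, was lower by -0.19 ± 0.07 (SE; adjusted p = 0.037) with OVA and -0.19 ± 0.07 (SE; adjusted p = 0.046) without. The call of Syvn1 with OVA was lost without any 1 of the 6 OVA-pulsed libraries (adjusted p up to 0.14) and without the block (adjusted p = 0.067), and the call without OVA was lost without CtrV_ut replicate 1, CtrV_OVA replicate 1, CtrV_OVA replicate 2, CtrV_OVA replicate 3, EKO_ut replicate 1, EKO_ut replicate 2, EKO_OVA replicate 1, EKO_OVA replicate 2 or EKO_OVA replicate 3 (adjusted p up to 0.23), as well as in DESeq2 (adjusted p = 0.0603), under RLE scaling (adjusted p = 0.052), with no expression filter (adjusted p = 0.066), with at least 10 counts required in every library (adjusted p = 0.052), without the replicate block (adjusted p = 0.086) and in the fit of the 6 compared libraries (adjusted p = 0.16).

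Herpud1 encodes a membrane protein that assembles the degradation complex and is a common target of ATF4 and ATF6. It was at 269 ± 22.1 CPM (SD, n = 3) in OVA-pulsed CtrV and 319 ± 15.5 CPM in OVA-pulsed EKO-labelled cells, and passed the test only without OVA, at 0.25 ± 0.10 (SE; adjusted p = 0.061) with OVA and 0.33 ± 0.10 (SE; adjusted p = 0.0202) without. With OVA it was called without CtrV_ut replicate 1, CtrV_OVA replicate 1 or EKO_ut replicate 1 (adjusted p up to 0.038), and without OVA its call was lost without CtrV_ut replicate 2, CtrV_ut replicate 3, EKO_ut replicate 2 or EKO_ut replicate 3 (adjusted p up to 0.11) and in the fit of the 6 compared libraries (adjusted p = 0.071). With OVA it was also called in DESeq2 (adjusted p = 0.049) and in the fit of the 6 compared libraries (adjusted p = 0.0302). The adapter gene Sel1l, Derl2 and Selenos, whose protein recruits the extracting ATPase, were not called in either state. Their 95% intervals with OVA were -0.24 to 0.06 for Sel1l, -0.09 to 0.12 for Derl2 and -0.14 to 0.10 for Selenos. Of these 3, Sel1l alone was called with 1 library left out, with OVA and without CtrV_OVA replicate 1 (adjusted p = 0.043). Without OVA the intervals were -0.19 to 0.11, -0.10 to 0.11 and -0.14 to 0.10.

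The difference between the lines was then compared between the pulsing states. Of the 27 genes called with OVA, 25 were also called without OVA, all 25 in the same direction. The 2 comparisons share no library, but they compare the same 2 lines within one fit. Dnajb9 and Canx passed the test only with OVA, Chac1 and Herpud1 only without, and 7 genes in neither state. The dependence of the line difference on pulsing was tested directly and called 0 of the 36 genes (0% of all genes). The largest estimate was 0.26 ± 0.26 (SE) for Ppp1r15a on the log2 scale. OVA itself called 0 of the 36 genes in CtrV cells (0% of all genes) and 0 in EKO-labelled cells (0% of all genes). By an unadjusted p under 0.05 in edgeR's quasi-likelihood test, 231 of 14079 genes passed with OVA in CtrV and 394 in EKO-labelled cells. The test of dependence passed 269. Each number is below what this threshold passes on average when no gene differs. In each case 0 of the 36 genes were among them, and at such shares few would be. DESeq2 and limma voom also called 0. Absolute log2 changes of the 36 genes with OVA reached 0.14 in CtrV and 0.31 in EKO-labelled cells, with a median SE of 0.07 in both lines.

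**Figure D3:**
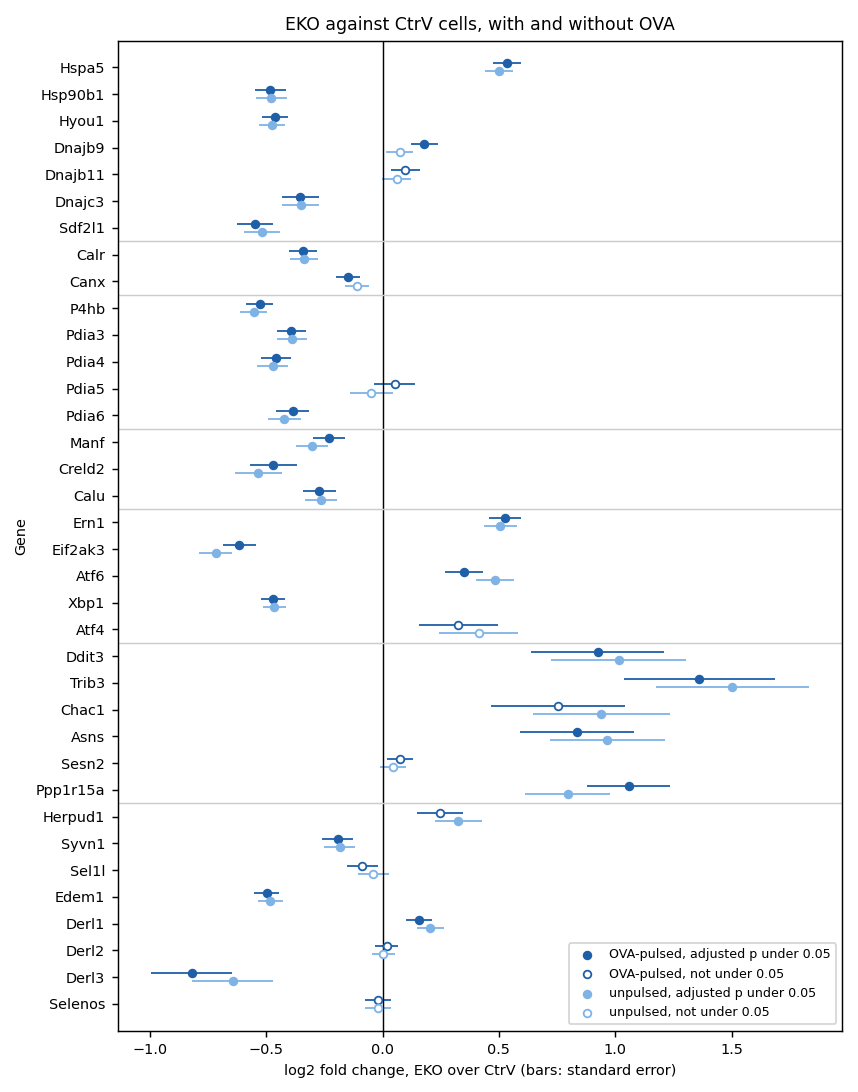
log2 fold change of EKO-labelled over CtrV cells (horizontal axis, bars for the SE) of the 36 genes in OVA-pulsed (dark) and unpulsed cells (light), with filled points for an adjusted p under 0.05. The dark and light points of a gene lie within 0.261 of each other, and all 25 genes filled in both states lie on the same side of 0.

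Further genes of the secretory pathway and of the stress response, in 9 lists that do not include the 36 genes, were counted in OVA-pulsed cells with the same test, against the 47.0% of all genes that were called (25.1% higher and 21.9% lower). Of 15 tested genes of N-glycosylation and glycan trimming, 0 were higher and 10 lower (median log2 fold change -0.19). They included Tusc3, a subunit of the oligosaccharyltransferase, at -0.95 (adjusted p = 8.6e-07), Uggt1, which marks unfolded glycoproteins for another round with the lectins, at -0.56 (adjusted p = 7.02e-05), and the glucosidase gene Mogs at -0.48 (adjusted p = 1.4e-05). Of 19 other folding and oxidation genes 1 was higher and 6 lower (median -0.12). The oxidase gene Ero1l was at 0.29 (adjusted p = 0.00059) and its paralogue Ero1lb at -0.61 (adjusted p = 5.05e-06), so the 2 moved in opposite directions. Txndc5, an isomerase, was at -0.64 (adjusted p = 7.8e-06), with 11.9% of its exon bases overlapped on the other strand, and Txndc11 was at -0.32 (adjusted p = 0.0019).

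The translocon and signal peptide list had 2 higher and 5 lower of 18 tested genes (median -0.07), with Srpr, a receptor subunit for the signal recognition particle, at 0.31 (adjusted p = 0.0014) and the signal peptidase gene Spcs3 at -0.40 (adjusted p = 0.00072). Export from the ER to the Golgi had 0 higher and 8 lower of 22 (median -0.10), among them the coat gene Sec24d at -0.46 (adjusted p = 6.9e-05), Tmed10 at -0.31 (adjusted p = 0.00057) and the retrieval receptor gene Kdelr1 at -0.21 (adjusted p = 0.0024). Without CtrV_OVA replicate 2 or 3, or EKO_OVA replicate 1 or 3, this count of 8 fell to between 3 and 5. Of 23 other ER degradation genes, 8 were higher, 1 was lower and 14 were not called (median 0.06). Without OVA 7 were higher (24.5% of all genes) and 4 lower (21.9% of all genes). The ubiquitin-conjugating enzyme gene Ube2j1 was at 0.91 (adjusted p = 1.4e-07), Edem2 at 0.63 (adjusted p = 5.6e-05) and Erlec1 at 0.37 (adjusted p = 0.0014). Rnf5, at -0.28 (adjusted p = 0.0052), is overlapped on the opposite strand in 24.7% of its exon bases. Hence, Edem1 and Edem2, 2 relatives, were called in opposite directions.

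The list of other ATF4 and CHOP targets held the largest changes, with 16 higher and 2 lower of 31 tested genes (median 0.36), and it gave 10 calls in all without CtrV_OVA replicate 2. Phgdh lay at 1.27, 1.252 and 2.06 CPM in the unpulsed and 1.73, 1.24 and 1.46 CPM in the OVA-pulsed CtrV libraries, against 5.79, 11.7 and 13.9 CPM in the unpulsed and 6.48, 10.8 and 12.1 CPM in the OVA-pulsed EKO-labelled libraries. Phgdh, the first enzyme of serine synthesis, was low in CtrV and higher in every EKO-labelled library, at 2.66 ± 0.24 (SE; adjusted p = 7.5e-06) with OVA. The CtrV libraries held Slc7a11 at 23.8, 20.8 and 21.0 CPM without and 35.6, 17.2 and 18.5 CPM with OVA, and the EKO-labelled libraries at 76.4, 65.8 and 54.6 CPM without and 88.9, 72.6 and 70.5 CPM with OVA. Slc7a11, the cystine transporter, did not overlap between the lines either, at 1.74 ± 0.15 (SE; adjusted p = 4.7e-06). The stress-induced factor gene Atf3 was at 1.72 (adjusted p = 5.9e-05). Tnfrsf10b, the death receptor gene induced by CHOP, was lower at -0.95 (adjusted p = 5e-05), and the amino acid transporter gene Slc7a5 was lower at -0.54 (adjusted p = 0.022). Other stress kinases and factors had 7 higher and 3 lower of 18 (median 0.08). Among them were Eif2ak2, the interferon-induced kinase PKR that also phosphorylates eIF2α, at 0.80 (adjusted p = 0.00084), Crebrf at 0.60 (adjusted p = 0.0022), the antioxidant factor gene Nfe2l2 at 0.59 (adjusted p = 0.00012) and Creb3l2 at -0.51 (adjusted p = 0.00016).

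Of 5 tested mRNAs known to be cleaved by IRE1, 1 was higher and 1 lower (median -0.07). Tapbp, the gene of tapasin, was at 0.22 (adjusted p = 0.039), with 24.9% of its exon bases overlapped on the opposite strand, and Ergic3 was at -0.15 (adjusted p = 0.035). The count of 2 fell to 1 without CtrV_ut replicate 2 or CtrV_OVA replicate 1, and to 0 without CtrV_OVA replicate 2 or 3 or any of the 3 EKO_OVA libraries. Cytosolic and mitochondrial chaperones had 9 higher and 1 lower of 24 (median 0.10), 6 calls in all without CtrV_OVA replicate 2. Hspa1a and Hspa1b, the inducible cytosolic HSP70 genes, were at 1.09 (adjusted p = 0.00014) and 0.88 (adjusted p = 0.00026). They are near-identical copies whose reads can be split between them, so each value is uncertain. Dnajb4 was at 1.05 (adjusted p = 1.9e-05), and Bag3, another heat shock gene, at -0.19 (adjusted p = 0.033).

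**Figure D4:**
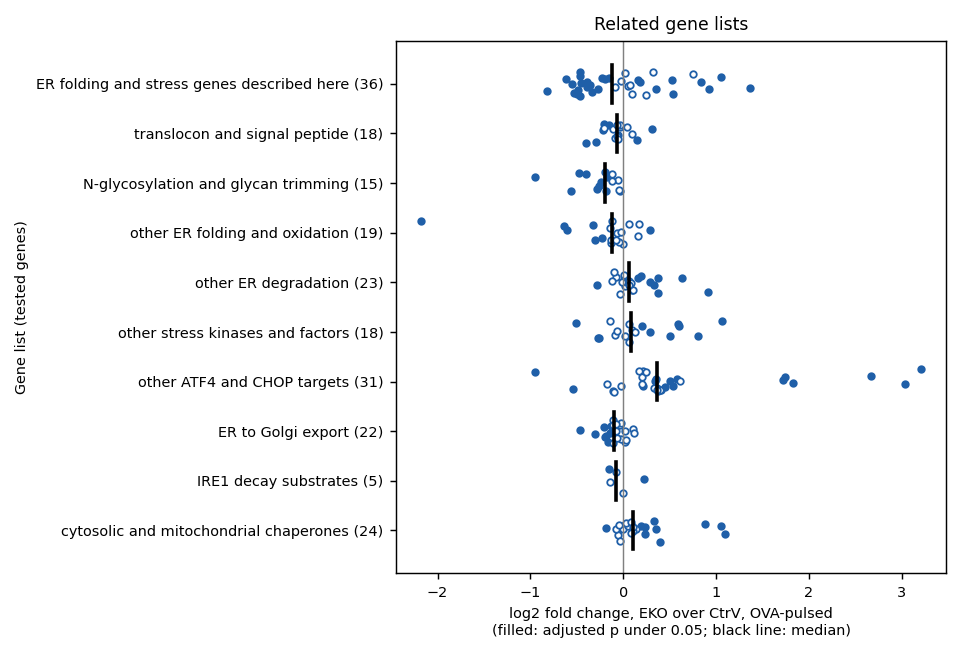
log2 fold change of EKO-labelled over CtrV cells with OVA (horizontal axis) of each tested gene in the list of 36 and in 9 related lists (rows, number of tested genes in brackets), with filled points for an adjusted p under 0.05 and a black line at the median. Medians lie below 0 for glycosylation and export, and above 0 for ATF4 and CHOP targets, where single genes reach beyond 3.

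The promoter matches shown above were set beside the differences between the lines. Of the 9 genes with the ER stress element, 8 were lower and 1, Hspa5, was higher in OVA-pulsed EKO-labelled cells, beside 50% of the list and 21.9% of all genes lower, and the median log2 fold change of the 9 was -0.35. Most of the 9 are folding proteins, and of all 17 folding proteins 13 were lower (76.5%), also with a median of -0.35. The share of lower genes with the element is thus to be read beside that of this class. Of the 8, the small differences of Canx and Syvn1 lost their calls with single libraries left out, as given above, and Canx was not called without OVA. Hspa5 and Hsp90b1 share the element, once and 2 times within the searched window, and differed in opposite directions. Derl3, with the most negative change of the list with OVA, has it in the reverse orientation at bases -156 to -138, and Hspa5 has it in the forward orientation at bases -65 to -47 from the start. The genes with the second element, Dnajb11 and Herpud1, were both not called with OVA. Of the 4 genes with the C/EBP-ATF element, Trib3 and Asns were higher with OVA, Chac1 and Herpud1 were not called, and none was lower. Ddit3 and Ppp1r15a, which also rose, had no match to these letters in the window. P4hb, Pdia4, Xbp1, Edem1 and Eif2ak3, which were lower, had no match to any searched element.

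**Figure D5:**
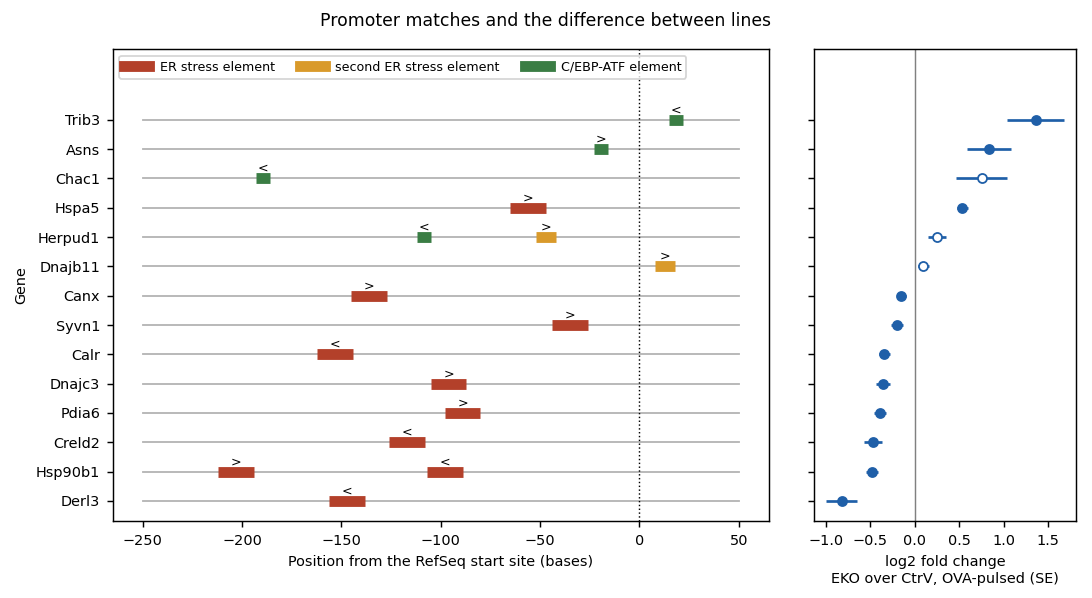
Left, positions of promoter matches in bases from the RefSeq start site (horizontal axis) for the 14 genes with a match, with arrows for the orientation. Right, log2 fold change of each gene in OVA-pulsed EKO-labelled over CtrV cells with its SE, open where not called, in which 8 of the 9 genes with the ER stress element lie below 0 and Hspa5 above.

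Upper-quartile scaling moved the median of all genes by up to 0.0498 on the log2 scale, which is less than each called change with OVA, and it ended the calls of Dnajb9 and Derl1 with OVA. The count of lower genes stayed between 14 and 18 with OVA and between 14 and 17 without when any 1 library was left out. The count of higher genes was less stable, since it fell from 9 to 5 without CtrV_OVA replicate 2 and without CtrV_OVA replicate 3, and from 10 to 5 without CtrV_ut replicate 2 and to 6 without EKO_ut replicate 2. Without the replicate block 6 were higher and 17 lower with OVA, and 7 higher and 16 lower without. No share of all genes is given for any of these fits, here or above. A fall in calls therefore cannot be told apart from fewer calls over all genes.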

How the data were processed

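RNA sequencing of 12 Sp37A3 cultures was analysed. The deposited table holds raw, unscaled counts for each gene and library. Per the study's methods, STAR aligned the reads to mm10, keeping 1 place for a read with several equally good ones, and featureCounts summed them over exons of Ensembl genes, with no word on strand. Names and positions come from the GENCODE annotation of GRCm38, which is not the gene model of the counts, and promoters from RefSeq.

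Of 28881 genes with any count, 14079 exceeded a log2 CPM of 0 in 2 or more libraries and were kept. They were tested in R 4.3.3 with edgeR 4.0.16, using TMM scaling, the quasi-likelihood fit over all 12 libraries, group and replicate number as terms, as in the study's methods, and Benjamini-Hochberg adjustment. An adjusted p under 0.05 was called, since the study's threshold is blank in its text. CPM values use TMM-scaled totals. The 95% intervals are the SE times the t quantile at the fit's degrees of freedom. Deviations of same-numbered libraries correlated by 0.448, 0.292 and 0.289 between the OVA-pulsed lines, and by 0.0602, -0.0118 and 0.263 between the unpulsed lines. The labels do not say what a replicate number shares or whether cultures were grown separately, so p-values measure the spread between these cultures, which may be technical.

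The 36 genes and the other lists were chosen with earlier results of these data known. Values in every library are given for the sensors and their factors, Hspa5, Ddit3, and the up to 10 largest called rises and falls with OVA. From each other list, the up to 3 largest called rises and falls with a mean log2 CPM of at least 1 could be named. As alternatives, DESeq2 1.42.0 was run, as were upper-quartile and RLE scaling, voom of limma 3.58.1, other filters and thresholds, bias-adjusted deviances, no block, the 6 compared libraries, and left-out libraries. The edgeR fit was tested on simulated counts in all 5 comparisons.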

Additional observations from a re-analysis of the deposited data

How the results depend on the processing

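No called gene of the 36 changed direction under any alternative, while log2 fold changes near 0 of uncalled genes did. Derl2 with OVA, reported at 0.0169, lay at -0.0135 to 0.0548 with 1 library left out, -0.0204 under upper-quartile scaling and -0.0024 without both EKO-labelled replicates 1. Pdia5 with OVA, reported at 0.0511, lay at -0.0563 to 0.0995 with 1 library left out and -0.0582 without both EKO-labelled replicates 1. Selenos with OVA, reported at -0.0203, lay at -0.0686 to 0.0071 with 1 library left out. Derl2 without OVA, reported at 0.0035, lay at -0.0172 to 0.0209 with 1 library left out, -0.0463 under upper-quartile scaling, -0.0031 in the fit of the 6 compared libraries and -0.0019 without both EKO-labelled replicates 1. Sel1l without OVA, reported at -0.0397, lay at -0.0955 to 0.00031 with 1 library left out. Selenos without OVA, reported at -0.0213, lay at -0.0960 to 0.0212 with 1 library left out. Sesn2 without OVA, reported at 0.0443, lay at -0.0053 under upper-quartile scaling. Of the values for the 36 genes with OVA, 468 came from fits without 1 library or without both EKO-labelled replicates 1, of which 414 kept direction and side of the threshold, 35 lost and 12 gained a call and 7 turned. Of 396 under other settings 347 kept both, 43 lost and 5 gained a call and 1 turned. Without OVA these numbers were 429, 28, 3 and 8 of 468, and 349, 42, 2 and 3 of 396. With an adjusted p under 0.01, 5 genes were higher with OVA and 6 without, and the lists of ER to Golgi export and of IRE1 substrates kept 3 and 0 calls. Requiring an absolute log2 fold change of 1 or more left 2 higher and 0 lower genes in both states. It left 0 calls in the translocon, N-glycosylation, other degradation, export and IRE1 lists, and 1 in the other folding and in the kinase lists. Among ATF4 and CHOP targets it left 6 calls, and among cytosolic chaperones 2. Without this requirement, the ATF4 and CHOP targets had 18 calls with all libraries and 26 without both EKO-labelled replicates 1. No share of all genes is given for the latter fit or for the other alternatives of this section, so their counts cannot be set against a background. The latter fit kept both CtrV replicates 1, and its larger count is no separate support for a difference. The IRE1 list had 1 call in place of 2 in DESeq2, under upper-quartile scaling, with no expression filter, without the replicate block and without both EKO-labelled replicates 1. With each library left out in turn, higher genes numbered 5 to 12 with OVA and 5 to 11 without, lower genes 14 to 18 and 14 to 17, and calls in the lists 10 to 23 (ATF4 and CHOP), 3 to 9 (export), 0 to 2 (IRE1) and 6 to 11 (cytosolic chaperones). The block of replicate numbers paired the OVA-pulsed lines by the correlations given above and the unpulsed lines in replicate 3 alone. Without the block 6 genes were higher and 17 lower with OVA, and the calls of Ern1, Dnajb9, Derl1 and Syvn1 with OVA and of Ern1, Ppp1r15a, Derl1 and Syvn1 without OVA were lost. The causes were not tested. With 3 cultures per group and 1 line per genotype, differences near the threshold, such as those of Canx, Derl1 and Syvn1, depend on single libraries.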

Other observations

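Some listed genes outside the rule for naming, chosen after their values were seen, had large changes in OVA-pulsed cells by edgeR's quasi-likelihood test. Clgn, calmegin, a relative of calnexin known from the testis, had a log2 fold change of -2.18 (adjusted p = 9.4e-06). Among ATF4 and CHOP targets, Cth, which makes cysteine, was at 3.21 (adjusted p = 0.00057), Aldh1l2, a mitochondrial folate enzyme, at 3.03 (adjusted p = 4.8e-05) and the secreted stress factor Gdf15 at 1.82 (adjusted p = 0.00075). Each lay at a mean log2 CPM under 1, so the values rest on few reads. In OVA-pulsed cells the libraries held 89 to 106 (CtrV) and 19 to 26 (EKO-labelled) counts of Clgn, 3 to 10 (CtrV) and 37 to 80 (EKO-labelled) of Cth, 5 to 8 (CtrV) and 48 to 57 (EKO-labelled) of Aldh1l2 and 9 to 26 (CtrV) and 54 to 64 (EKO-labelled) of Gdf15.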
